A study of Homo sapiens with 4 samples.

Results

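The genes described are the replication-dependent core histone genes and the linker histone genes of KP4 cells. They were chosen by name, as protein-coding rows of the count table whose symbol follows the H1, H2AC, H2BC, H3C or H4C pattern. The rule used no measured value and found 70 of 60651 genes. Of these, 49 had at least 10 counts summed over all 12 libraries and are described, and 21 had fewer, 12 of them none. The described genes were 7 of 10 linker histone H1 genes, 12 of 16 H2A, 14 of 17 H2B, 7 of 13 H3 and 9 of 14 H4 genes. Most lay in the histone clusters of chromosome 6 (42 of 55 described) and chromosome 1 (5 of 11). H1-10 lies on chromosome 3. Around the threshold of 10 counts, H3C11, H2AC4 and H4C1 had 12 counts each, and H3C7, H2BC14 and H2BC10 had 8 each.

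KP4 is a cell line from a human pancreatic ductal adenocarcinoma, and its RNA was sequenced in 4 groups. Control cells and cells labelled E5 were each given DMSO (vehicle) or FOLFIRINOX for 96 h. The mixture combined 5 µM of the platinum drug oxaliplatin with 25 nM of SN-38, which irinotecan is converted to, and 10 µM of what the labels call 5-F. The series' title calls the E5 cells resistant to the mixture and its design text mentions 5 treatment cycles, so the earlier exposure of the E5 vehicle cells is not settled by the labels. All cells were grown in DMEM with fetal bovine serum. Each group is 1 GEO sample with 3 numbered columns, read as n = 3 libraries. Nothing says that the 3 came from separate cultures, so p-values measure the spread between these columns, which may be technical.

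Histones package DNA: pairs of H2A with H2B and of H3 with H4 form the nucleosome core, and H1 binds the linker DNA where the strand enters and leaves it. The core histone genes numbered within a class encode nearly the same protein and are clustered, usually without introns. They are transcribed mainly in S phase, when new chromatin needs histones. Their mRNAs usually end in a short stem-loop bound by SLBP in place of a poly(A) tail, although many of the genes can also make polyadenylated transcripts, known best from cells that leave the cell cycle or differentiate. H1-10 is different, as its mRNA is polyadenylated and made outside S phase too. The libraries were made with an mRNA kit, a kind that captures RNA by its poly(A) tail. A change in the amount of a histone mRNA and a change in the share of it that carries a tail can therefore not be told apart in these counts, and neither can a change in the number of expressing cells and one in RNA per cell.

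The stem-loop is the sequence that sets these mRNAs apart, so it is shown first. The canonical histone stem-loop, with a CTTTT core and variable positions in the stem and loop, was searched on the sense strand of GENCODE v29 transcripts (GRCh38) and was found in 27 of the 68 members that have a gene there. A further 31 members have models that hold the coding sequence only and could not show it. Of all 19684 protein-coding genes, 52 (0.264%) held the letters. The examples, from genes whose values follow, cover each form found, with the stem and loop in capitals and up to 5 bases of the transcript on each side.
H2AC6: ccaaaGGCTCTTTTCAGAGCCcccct
H2AC11: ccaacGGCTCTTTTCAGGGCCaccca
H2BC5: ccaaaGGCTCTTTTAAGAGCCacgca
H3C10: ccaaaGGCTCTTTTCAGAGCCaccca
H3C8: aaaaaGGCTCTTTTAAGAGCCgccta
H4C8: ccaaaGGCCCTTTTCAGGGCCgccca
H4C9: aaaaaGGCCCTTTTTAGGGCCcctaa
The form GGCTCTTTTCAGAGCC, as in H2AC6 and H3C10, was found in 15 members. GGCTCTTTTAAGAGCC, as in H2BC5 and H3C8, and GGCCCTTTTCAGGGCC, as in H4C8, were found in 4 members each, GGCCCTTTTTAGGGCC, as in H4C9, in 3, and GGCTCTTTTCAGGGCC in H2AC11 only. The annotated transcripts differed in how far they run past these letters. In 19 of the 27 members at least 1 transcript model ran over 100 bases past the loop, and 15 of those 19 had enough reads to be tested. Of the 8 members whose models all stop within 100 bases, 3 were tested (H2AC8, H2AC13 and H2BC5), and of the 31 with coding-only models 6 were. Longer models also collect more reads, so these counts describe the annotation together with the RNA. Some genes span far more bases than their longest GENCODE v29 transcript, so introns are annotated there. Examples are H2AC6, with 14972 against 1668 bases, and H2BC5, with 13204 against 789 bases.

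Start regions were shared as well. Promoters from RefSeq (GRCh38.p14, 250 bases before to 50 after the start) were found for 64 of the 70 members, and 4 motifs were searched on both strands. TATAAA, the TATA box, was in 65.6% of member promoters and 11.5% of all 35116. CCAAT was in 84.4% against 34.6%. The octamer ATTTGCAT, bound by OCT1 (POU2F1), was in 40.6% against 1.77%. It was in 14 of 17 H2B and 11 of 15 H2A promoters, 1 of 11 H3 promoters and none of the 12 H4 or 9 H1 promoters. The H3 promoter is that of H3C4, to which the table gives the same coordinates as to H2AC7. Its start site, 26199293, is where the counted H2AC7 gene begins on the minus strand. The counted H3C4 gene lies at 26196784 to 26197286, so the octamer is at the H2AC7 start and not at its own. It is 1 stretch counted under both symbols, and of the 63 distinct regions 25 held the octamer. AAACACA, the H1 box, was in 7 of 9 H1 promoters and 5.64% of all. CCAAT was in every H2A, H2B and H3 promoter found and in 3 of 12 H4 promoters. A match describes these letters only.

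The members form 10 pairs of an H2A and an H2B gene that lie head to head with start sites 194 to 248 bases apart, and 4 of the pairs had both genes tested. The stretches between the start sites of 2 such pairs, and the 150 bases before the starts of H1-2 and H1-10, are shown because the genes on both sides responded together or, for the H1 genes, in opposite directions. Motif letters are in capitals on either strand, so a motif can appear as its reverse complement, as the octamer does in ATGCAAAT. The run TTTATAAA holds the TATA letters on both strands, overlapping. The pair regions (chr6:26123927-26124171 and chr6:27132796-27133042) are on the plus strand, and those of H1-2 (chr6:26056471-26056620) and H1-10 (chr3:129316287-129316436) are on the minus strand.
H2BC4/H2AC6: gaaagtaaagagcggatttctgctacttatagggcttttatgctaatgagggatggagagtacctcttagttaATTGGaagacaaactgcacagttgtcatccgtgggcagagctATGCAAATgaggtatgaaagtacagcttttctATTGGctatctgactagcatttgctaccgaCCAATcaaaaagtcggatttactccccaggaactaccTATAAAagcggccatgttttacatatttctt
H2BC11/H2AC11: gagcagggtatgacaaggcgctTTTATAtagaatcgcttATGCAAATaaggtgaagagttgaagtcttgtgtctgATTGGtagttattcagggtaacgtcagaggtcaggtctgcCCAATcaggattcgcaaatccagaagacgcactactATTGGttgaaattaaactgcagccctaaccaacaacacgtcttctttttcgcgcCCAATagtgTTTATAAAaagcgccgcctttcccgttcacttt
H1-2: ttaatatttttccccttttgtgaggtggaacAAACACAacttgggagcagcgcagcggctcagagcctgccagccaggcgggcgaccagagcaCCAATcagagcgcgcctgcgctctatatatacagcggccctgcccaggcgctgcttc
H1-10: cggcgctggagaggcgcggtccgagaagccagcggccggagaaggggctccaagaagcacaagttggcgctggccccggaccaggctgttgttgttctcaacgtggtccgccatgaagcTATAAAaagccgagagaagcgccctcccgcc
Each pair region held the octamer, written ATGCAAAT, and CCAAT letters in both orientations. H1-2 carried the H1 box and CCAAT, and H1-10 carried TATAAA alone of the 4 motifs in the stretch shown.

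The libraries held 7359034 to 21775030 gene reads, and 3315 to 14098 of them fell in the 70 histone genes, so values under about 1 CPM rest on few reads. CPM are counts scaled to a common library size with TMM factors, folds are log2 fold changes ± SE, and adjusted p-values are from edgeR's quasi-likelihood test over all tested genes. The labelled cell type was checked on markers. KRT8, KRT18, SOX9 and VIM were present in every library, with medians of 118, 445, 92.7 and 2270.4 CPM, while KRT19, EPCAM and CDH1 had medians of 1.24, 0.563 and 0.904 CPM. Of 14 markers of other cell types, 5 (CD3E, PRSS1, CPA1 and INS among them) were at 0 and 11 stayed under 1 CPM in every library. Their sum moved with the groups, from 50.7 to 56.6 CPM in control vehicle libraries, 11.4 to 14.8 under FOLFIRINOX, 2.01 to 2.95 in E5 vehicle and 1.54 to 2.27 in E5 FOLFIRINOX libraries. The leukocyte gene PTPRC alone ran from 0 in the lowest to 54.6 CPM in the highest library, and the part of these markers in the results was not tested.

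Per length, the leading histone genes were H2B, H1 and H2A genes. By mean FPKM over all libraries, H2BC12 led with 113, then H1-2 with 66.8, H2AC6 with 57.8 and H2BC5 with 51.1. H1-10 (40.1), H2BC11 (25.1), H4C3 (23.1), H2BC4 (16.6) and H4C8 (13.8) were among those that followed. The leading H3 gene was H3C10 with 5.58 FPKM. Of the other tested members, H2AC11 (8.47), H2BC21 (6.63), H2BC15 (5.69) and H2AC13 (4.98) came next and the remaining 16 lay between 0.618 and 2.34. H2AC6 alone held 19.2% of the 98052 histone counts.

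Summed over all members of a class, core histone reads were higher under FOLFIRINOX and H1 reads were not uniformly so. The 60 core histone genes summed to 154 to 176 CPM in control vehicle and 435 to 436 CPM in control FOLFIRINOX libraries. In E5 cells the sums were 244 to 254 CPM under vehicle and 479 to 501 CPM under FOLFIRINOX. The 4 groups did not overlap in this sum, and the order ran from control vehicle over E5 vehicle and control FOLFIRINOX to E5 FOLFIRINOX. The last step rested on H2AC6. Without it the other 59 core genes summed to 306 to 309 CPM in control FOLFIRINOX and 302 to 315 CPM in E5 FOLFIRINOX libraries, which overlapped, above 181 to 183 in E5 vehicle and 122 to 140.0 in control vehicle libraries. The H3 sum had another order, with 19.7 to 22.5 CPM in control FOLFIRINOX libraries above the 14.2 to 14.9 CPM of E5 FOLFIRINOX, 11.2 to 12.9 of E5 vehicle and 9.14 to 9.99 of control vehicle libraries. The H1 sum ranged from 210.0 to 243 CPM in control vehicle and 164 to 202 in control FOLFIRINOX to 191 to 207 in E5 vehicle and 230.0 to 232 in E5 FOLFIRINOX libraries, and the control vehicle values overlapped those of E5 FOLFIRINOX. These sums have no test.

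**Figure D1:**
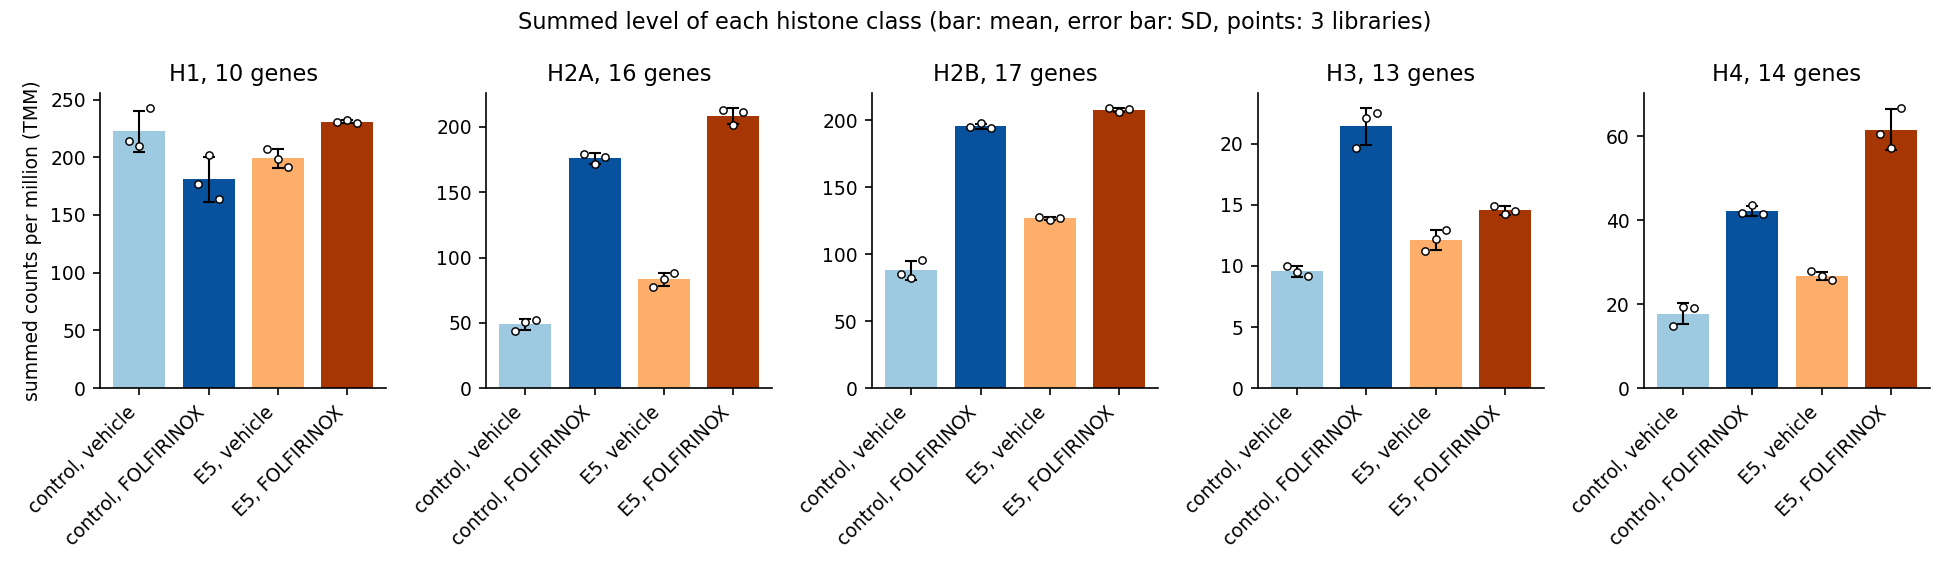
Summed CPM (TMM) of all members of each histone class on the y axis, in the 4 groups on the x axis; bars are means, error bars SDs and points the 3 libraries. The H2A sum runs from 48.9 ± 4.30 CPM in control vehicle to 208 ± 6.38 in E5 FOLFIRINOX libraries, while the H3 sum is highest in control FOLFIRINOX libraries at 21.4 ± 1.54 CPM.

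In the count test, 31 members passed the filter on low counts. They are not all members, and 3 of them, H2AC8, H2AC15 and H2AC16, reached the minimum in fewer than 3 vehicle libraries and so passed through the FOLFIRINOX libraries, which made a higher value there more likely. The other 28 reached it in at least 3 vehicle libraries. Of the tested members, 27 are on chromosome 6, 2 (H2BC18 and H2BC21) on chromosome 1, and H1-10 is on chromosome 3.

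FOLFIRINOX in control cells, the first comparison, raised core histone genes of all 4 classes. Of the 31 members, 21 rose and only H1-10 fell, and 9 did not pass. Among all tested genes 65.3% were called, 32.6% higher and 32.7% lower, against 67.7% of members higher. The median log2 fold change of the members was 1.12, where the median of all tested genes was 0.00. All 6 H2A genes, 9 of 12 H2B, 3 of 5 H3, 2 of 4 H4 and 1 of 4 H1 genes rose, and 16 of the 21 rose at least 2-fold. These counts include H2AC8, H2AC15 and H2AC16, whose rise the filter favoured. Of the other 28 members 18 rose (64.3%), 13 of them at least 2-fold, with a median of 0.86, and 3 of the 3 remaining H2A genes rose. The groups did not overlap for 21 of the 22 called members, H2AC15 being the exception. Overlap was counted here and in the comparisons below for members only, with no share over all tested genes. It therefore does not set the members apart from other genes. H2AC16 and H2BC7 were not called without single control libraries. Without any 1 of 5 control libraries (each except FOLFIRINOX replicate 3), H2AC16 stood at 1.04 to 1.18 with adjusted p = 0.055 to 0.093. Without any 1 of 4 (replicates 1 and 2 of each control group), H2BC7 stood at 0.57 to 0.72 with adjusted p = 0.073 to 0.15.

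With the same 96 h of drug, H2A, H2B and H4 genes rose in E5 cells too. The H3 genes called higher were H3C2 and H3C10, whose calls were lost without single E5 libraries. Of the members, 18 rose, H1-10 fell and 12 did not pass, which is 58.1% higher where 25.0% of all tested genes were higher, 27.3% lower and 52.3% called. The median log2 fold change was 0.61, against 0.00 over all tested genes, and 7 members rose at least 2-fold. By class, 3 of 6 H2A, 9 of 12 H2B, 2 of 5 H3, 2 of 4 H4 and 2 of 4 H1 genes rose. The groups overlapped for 1 called member, H3C2. The calls of H2BC17, H3C2, H3C10 and H4C3 were lost without single E5 libraries: H2BC17 (0.65 to 0.78, adjusted p = 0.061 to 0.14) without any vehicle library or FOLFIRINOX replicate 1 or 2, and H3C10 (0.24 to 0.31, adjusted p = 0.066 to 0.17) without replicate 1 or 2 of either group. H3C2 (0.81 to 1.03, adjusted p = 0.062 to 0.099) and H4C3 (0.29 to 0.41, adjusted p = 0.052 to 0.10) lost theirs without vehicle replicate 2 or 3 or FOLFIRINOX replicate 1 or 3.

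**Figure D2:**
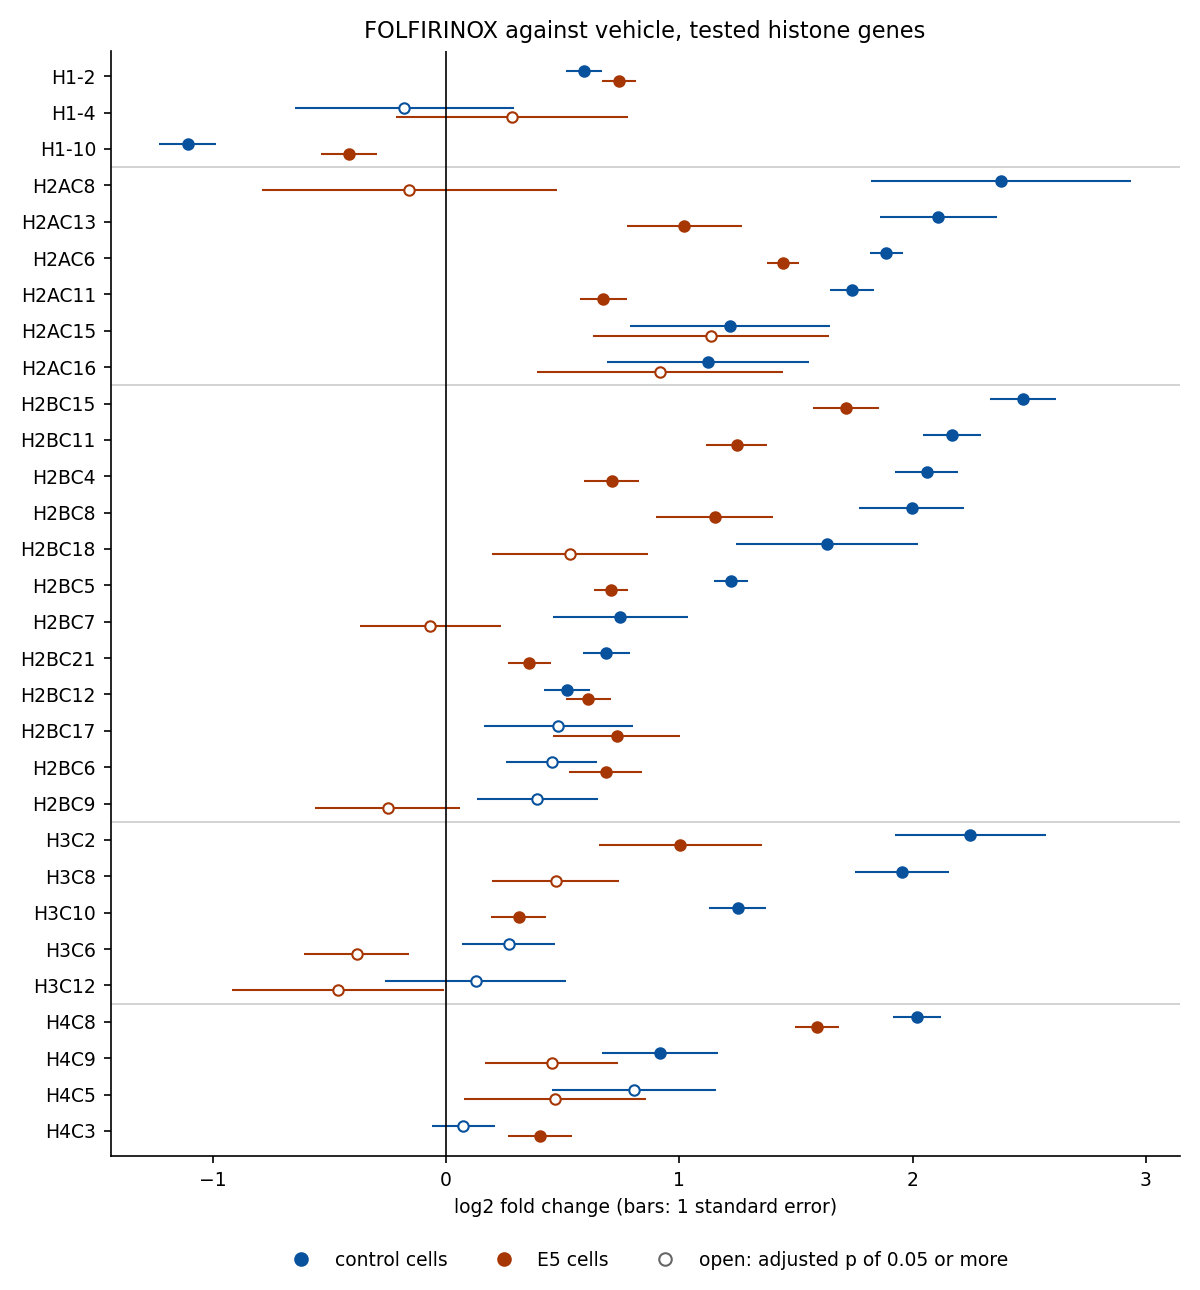
Log2 fold change of FOLFIRINOX against vehicle on the x axis for tested histone genes, sorted by class, in control cells and in E5 cells; points are fitted values, bars 1 SE, and open points did not pass. H2BC15 has the highest fold shown in both, at 2.47 ± 0.14 and 1.71 ± 0.14, and H1-10 is the called gene below 0 at -1.11 ± 0.12 and -0.42 ± 0.12.

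E5 against control cells under vehicle asked how the lines differed without 96 h of drug. Here 12 members were higher in E5 cells, 1 was lower and 18 did not pass, so 38.7% were higher where 22.1% of all tested genes were higher, 22.2% lower and 44.4% called. The median of the members was 0.30, against -0.01 over all tested genes. The higher members were 7 H2B, 2 H2A, and 1 each of H1, H3 and H4 genes, with the highest folds for H2BC4, H2BC18, H1-2 and H4C8. The groups overlapped for 3 called members, H2AC13, H2BC12 and H2BC15. The call of H2AC13 (0.64 to 0.81, adjusted p = 0.053 to 0.20) was lost without replicate 1 or 2 of either vehicle group or any E5 FOLFIRINOX library. H2BC12 (0.20 to 0.25, adjusted p = 0.083 to 0.15) lost its call without control replicate 1 or 2 or E5 replicate 1, H2BC15 (0.39 to 0.40, adjusted p = 0.12 to 0.14) without control replicate 2 or E5 replicate 3, and H2BC18 (1.06 to 1.34, adjusted p = 0.052 to 0.11) without control replicate 2 or E5 replicate 2 or 3.

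Under FOLFIRINOX the lines differed in both directions. In E5 cells 9 members were higher and 9 lower than in control cells, 29.03% each way. These shares lie near the background of 26.7% higher and 27.6% lower over all tested genes (54.3% called). The median was -0.29, against -0.01 over all tested genes. Higher were H1-2, H1-10, H2AC6, H2BC6, H2BC12, H2BC17, H2BC21, H4C3 and H4C8. Core histone genes among the lower were H2AC8, H2AC11, H2BC8, H2BC9, H2BC11, H3C2, H3C6 and H3C8. H2AC8 passed the low-count filter through FOLFIRINOX libraries and was highest in those of control cells, so the filter favoured this call. Of the 28 members that reached the minimum in at least 3 vehicle libraries, 9 were higher and 8 lower. Of the called members H4C3 alone had overlapping groups, at 0.32 ± 0.13. It and 5 others lost their calls without single libraries, H4C3 at 0.21 to 0.32 (adjusted p = 0.051 to 0.20) without any 1 of 8 libraries, being control vehicle replicate 3, replicates 1 and 3 of each FOLFIRINOX group and every E5 vehicle library. Without control FOLFIRINOX replicate 3, or without E5 FOLFIRINOX replicate 1 or 3, H2BC9 stood at -0.73 to -0.31 (adjusted p = 0.070 to 0.40). Without the same control library or E5 FOLFIRINOX replicate 2, H3C2 stood at -0.62 to -0.50 (adjusted p = 0.097 to 0.11), and without it or E5 FOLFIRINOX replicate 3, H3C6 stood at -0.57 to -0.39 (adjusted p = 0.054 to 0.17). H2BC17 also lost its call without it, at 0.77 (adjusted p = 0.051). H2AC8 stood at -1.20 to -1.17 (adjusted p = 0.080 to 0.083) without control FOLFIRINOX replicate 2 or E5 FOLFIRINOX replicate 1.

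The difference of the drug responses, E5 minus control, was called below 0 for 11 members and above 0 for 2, H1-10 among them. That is 35.5% of members lower where 12.4% of all tested genes were lower, 13.3% higher and 25.7% called. The median was -0.52, against 0.01 over all tested genes. The 11 were 4 H2A (H2AC6, H2AC8, H2AC11, H2AC13), 4 H2B (H2BC4, H2BC5, H2BC11, H2BC15), 2 H3 (H3C8, H3C10) and 1 H4 gene (H4C8). For 18 members the difference did not pass. Of the 11 calls, 4 were lost without single libraries, those of H2AC8, H2AC13 and H4C8 without any 1 of 8 libraries each and that of H2BC15 without either of 2, with the values given at each gene. H2AC8 also passed the filter only through FOLFIRINOX libraries, and of the other 28 members 10 were called below 0. The comparisons share libraries, so their values are given side by side and not as separate evidence.

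**Figure D3:**
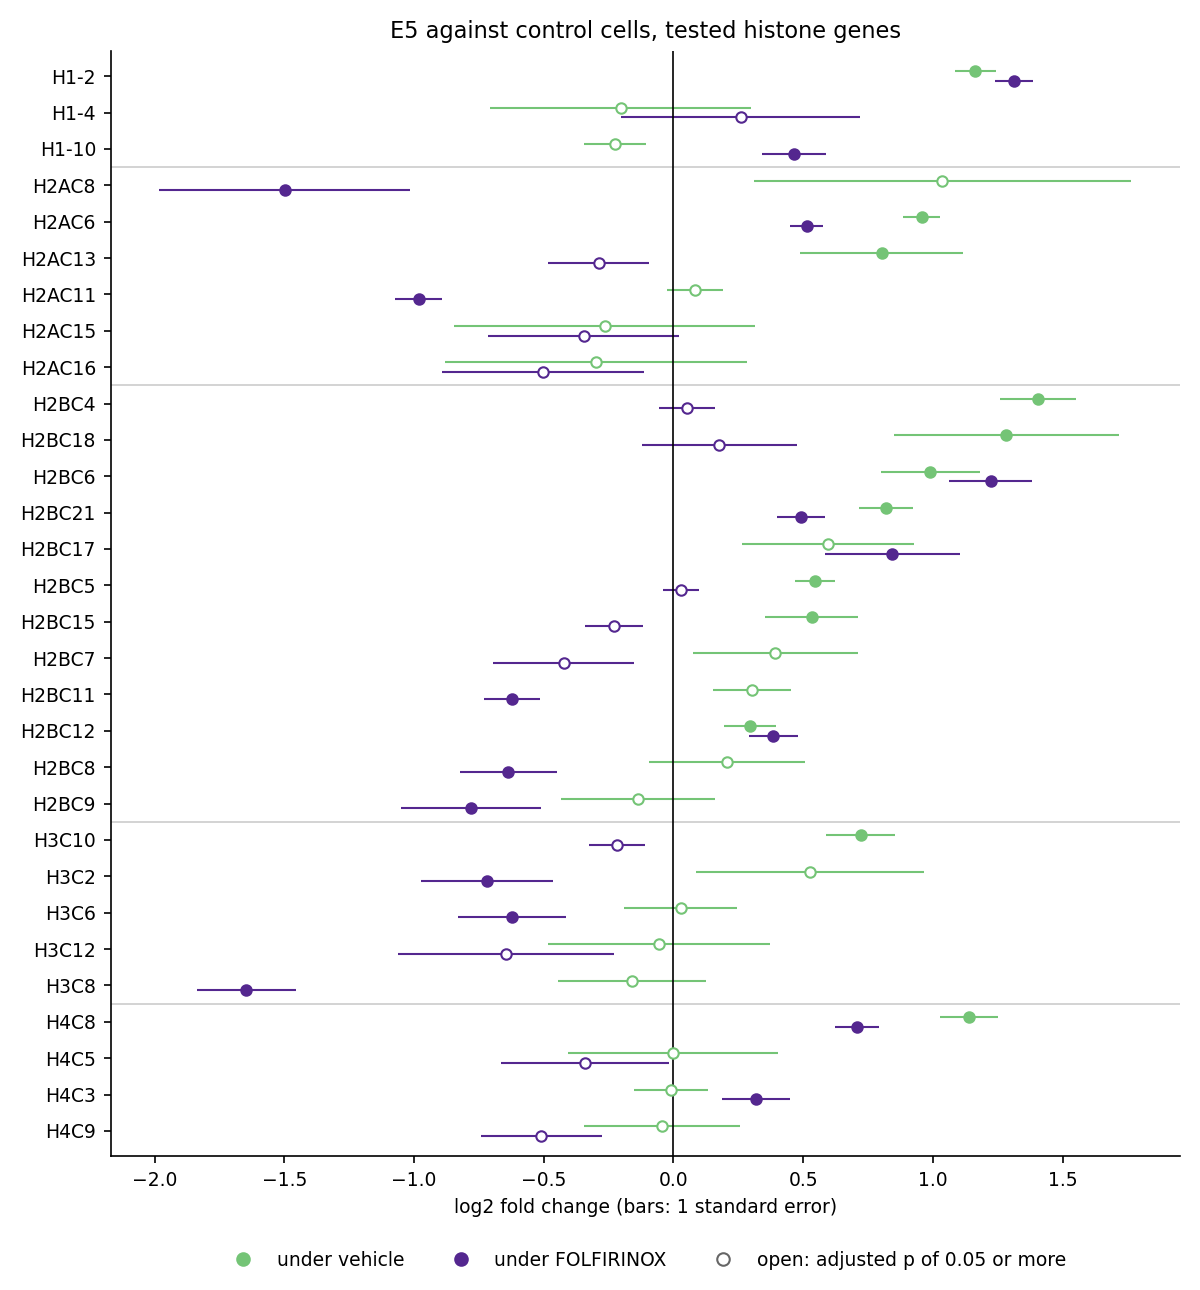
Log2 fold change of E5 against control cells on the x axis for tested histone genes, sorted by class, under vehicle and under FOLFIRINOX; points are fitted values, bars 1 SE, and open points did not pass. H1-2 lies at 1.16 ± 0.08 and 1.31 ± 0.07, while H3C8 lies at -0.16 ± 0.28 under vehicle and -1.65 ± 0.19 under FOLFIRINOX.

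Among the linker histones, H1-2 and H1-10 moved in opposite directions with the drug. H1-2 (ENSG00000187837.4, chromosome 6, 26055740 to 26056470, GRCh38) is one of the somatic S-phase subtypes. It was read at 24.4, 23.1 and 25.2 CPM in control vehicle libraries and 35.7, 40.2 and 33.3 CPM in control FOLFIRINOX libraries. E5 cells had 55.4, 54.2 and 53.5 CPM under vehicle and 93.4, 87.8 and 90.8 CPM under FOLFIRINOX. None of the 4 groups overlapped, and both the drug and the E5 state went with higher values. H1-2 rose with the drug by 0.59 ± 0.08 (adjusted p = 4.6e-06) in control and 0.74 ± 0.07 (adjusted p = 3.1e-07) in E5 cells, and was higher in E5 cells by 1.16 ± 0.08 (adjusted p = 1.6e-09) under vehicle and 1.31 ± 0.07 (adjusted p = 1.6e-10) under FOLFIRINOX. The difference of its drug responses, 0.15 ± 0.11 (adjusted p = 0.33), did not pass.

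H1-10 (ENSG00000184897.6, chromosome 3, 129314771 to 129316286), a replication-independent linker histone also called H1X, fell where the core genes rose. Its values were 84.4, 83.2 and 109.5 CPM in control vehicle libraries and 41.6, 50.7 and 36.0 CPM in control FOLFIRINOX libraries, without overlap. In E5 cells they were 85.5, 79.3 and 73.1 CPM under vehicle and 56.3, 65.0 and 56.5 CPM under FOLFIRINOX, also without overlap. It fell by 1.11 ± 0.12 on the log2 scale in control cells (adjusted p = 5.4e-07) and by 0.42 ± 0.12 in E5 cells (adjusted p = 0.0078). Under vehicle the lines overlapped and did not differ beyond the test (-0.23 ± 0.12, adjusted p = 0.14), while under FOLFIRINOX E5 cells were higher by 0.46 ± 0.12 (adjusted p = 0.0042). The difference of responses was 0.69 ± 0.17 (adjusted p = 0.0074) in the count test and did not pass on the authors' FPKM (0.57, adjusted p = 0.054). H1-4, another tested linker gene, had 135 counts in all and passed in no comparison, with folds from -0.20 ± 0.50 to 0.46 ± 0.68.

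**Figure D4:**
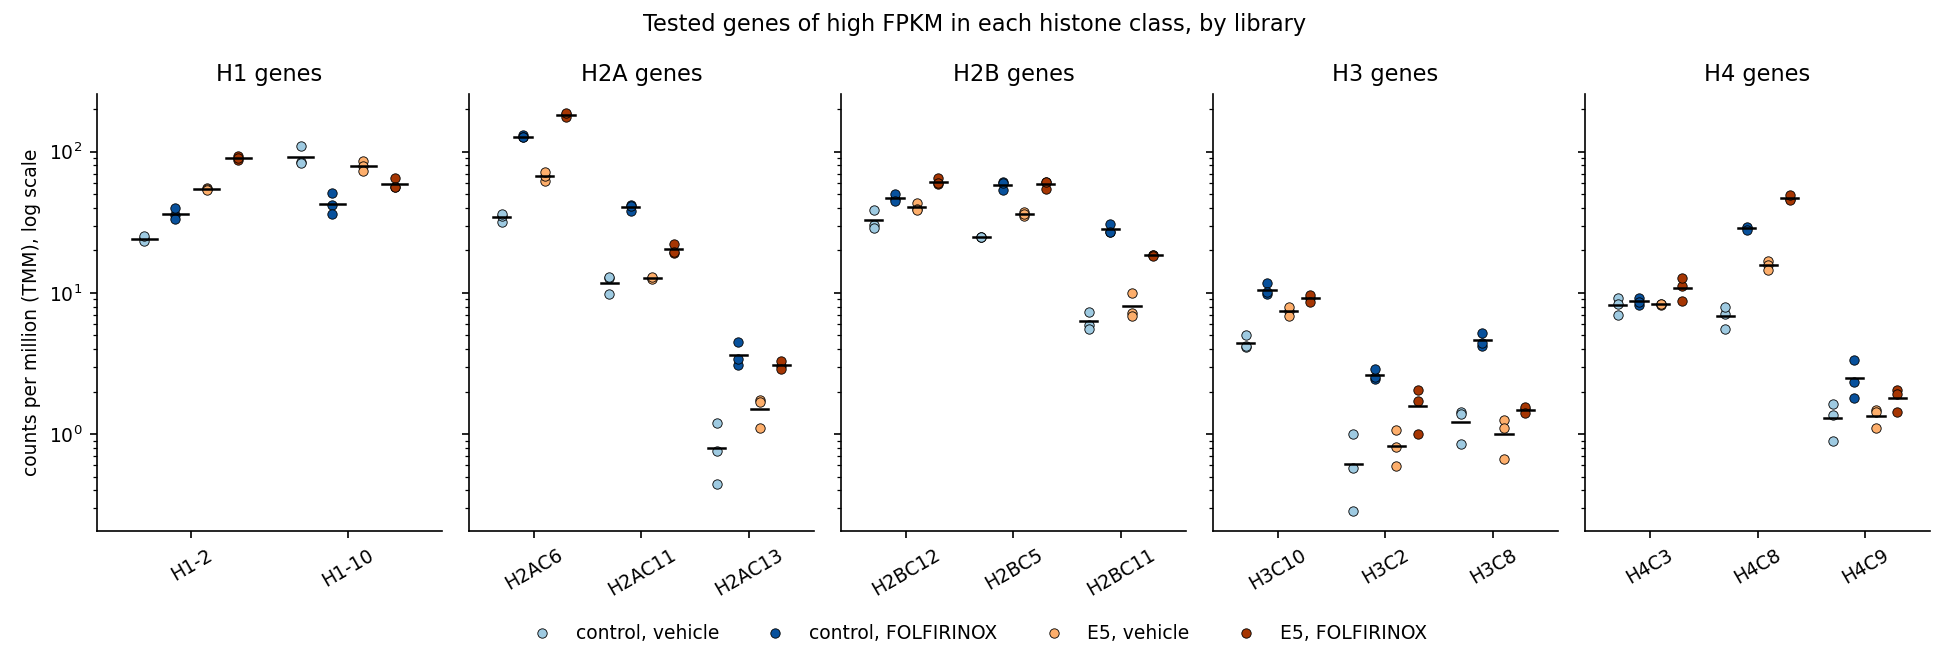
CPM (TMM, log scale) on the y axis for 2 or 3 tested genes of high FPKM in each histone class on the x axis; points are the 3 libraries of each group, coloured by group, and lines the means. H2AC6 and H4C8 rise in 4 separate steps from control vehicle over E5 vehicle and control FOLFIRINOX to E5 FOLFIRINOX, from 34.4 to 183 and from 6.89 to 46.9 CPM, while H2AC11, H2BC11 and H3C8 are highest in control FOLFIRINOX libraries.

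Among H2A genes, H2AC6 (ENSG00000180573.10, chromosome 6, 26124145 to 26139116) was the most counted member of all, with 18858 reads. It had 31.8, 35.2 and 36.2 CPM in control vehicle libraries and 130.5, 126 and 128 CPM in control FOLFIRINOX libraries. E5 cells had 61.5, 67.6 and 71.7 CPM under vehicle and 185, 177 and 187 CPM under FOLFIRINOX. The groups formed 4 separate steps. H2AC6 rose by 1.89 ± 0.07 (adjusted p = 1.7e-12) in control and 1.44 ± 0.07 (adjusted p = 9.2e-11) in E5 cells, and was higher in E5 cells by 0.96 ± 0.07 (adjusted p = 7.1e-09) under vehicle and 0.51 ± 0.07 (adjusted p = 4.4e-06) under FOLFIRINOX. Its rise was smaller in E5 cells by a difference of -0.44 ± 0.10 (adjusted p = 0.0031).

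H2AC11 (ENSG00000196787.3, chromosome 6, 27133042 to 27135291) rose in both lines but ended higher in control cells. It had 9.88, 12.7 and 12.9 CPM in control vehicle libraries and 42.3, 38.1 and 41.1 CPM in control FOLFIRINOX libraries. Its E5 values were 12.8, 12.6 and 13 CPM under vehicle and 22.3, 19.2 and 19.5 CPM under FOLFIRINOX. Neither pair overlapped, and the vehicle groups of the 2 lines did. The folds were 1.74 ± 0.10 (adjusted p = 1.5e-10) and 0.67 ± 0.10 (adjusted p = 3.7e-05) for the drug, 0.08 ± 0.11 (adjusted p = 0.57) for E5 under vehicle and -0.98 ± 0.09 (adjusted p = 8.9e-08) for E5 under FOLFIRINOX. The difference of responses, -1.07 ± 0.14 (adjusted p = 4.9e-05), had the lowest adjusted p of the 31 members for this contrast.

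H2AC13 (ENSG00000196747.4, chromosome 6, 27808199 to 27808701), with 417 reads, had 0.444, 0.763 and 1.2 CPM in control vehicle libraries and 3.08, 3.42 and 4.45 CPM in control FOLFIRINOX libraries. In E5 cells it had 1.74, 1.69 and 1.10 CPM under vehicle and 3.04, 3.27 and 2.89 CPM under FOLFIRINOX. The drug groups did not overlap in either line, and the lines overlapped under both treatments. It rose by 2.11 ± 0.25 (adjusted p = 1.3e-06) and 1.02 ± 0.25 (adjusted p = 0.0023). The difference, -1.09 ± 0.37 (adjusted p = 0.040), passed narrowly and was lost without any 1 of 8 libraries (each except control vehicle replicate 3, control FOLFIRINOX replicates 1 and 2, and E5 vehicle replicate 3), at -1.13 to -0.91 with adjusted p = 0.053 to 0.14. On FPKM the rise in E5 cells did not pass (0.49, adjusted p = 0.087). Of its 50-base windows 37.7% were unique among transcripts. Part of its reads may thus have mapped to several genes and been left out of its count.

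H2AC8, H2AC15 and H2AC16 are the genes that passed the filter through the treated libraries. H2AC8 had 0, 0.477 and 0.0571 CPM in control vehicle libraries and 0.899, 1.54 and 1.06 CPM in control FOLFIRINOX libraries, and in E5 cells 0.401, 0.753 and 0.170 CPM under vehicle and 0.258, 0.498 and 0.579 CPM under FOLFIRINOX. Control FOLFIRINOX libraries lay above all others, and the other 3 groups overlapped. Its folds were 2.38 ± 0.56 (adjusted p = 0.0013) in control cells, -0.16 ± 0.63 (adjusted p = 0.85) in E5 cells and -1.499 ± 0.48 (adjusted p = 0.015) for E5 under FOLFIRINOX, on 106 reads in all. The difference, -2.54 ± 0.88 (adjusted p = 0.044), was lost without any 1 of 8 libraries (each except control vehicle replicate 2 and replicate 3 of the other 3 groups), at -2.63 to -1.67 with adjusted p = 0.050 to 0.33. H2AC15 and H2AC16, with 76 and 80 reads, stood at 1.22 ± 0.43 (adjusted p = 0.019) and 1.12 ± 0.43 (adjusted p = 0.031) in control cells and did not pass in E5 cells. The H2AC15 call was lost with no filter on low counts (1.18, adjusted p = 0.056), with DESeq2 (1.18, adjusted p = 0.10) and on the authors' rlog values (0.24, adjusted p = 0.054), and the gene was not tested without any 1 of 6 libraries. The H2AC16 call was lost with no filter (1.09, adjusted p = 0.066), with DESeq2 (1.17, adjusted p = 0.090) and on log2(FPKM + 1) (0.34, adjusted p = 0.25) and log2(FPKM + 0.1) (0.68, adjusted p = 0.44).

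Among H2B genes, H2BC12 (ENSG00000197903.8, chromosome 6, 27146361 to 27146855) was the leading histone gene per length. It had 30.3, 28.9 and 38.9 CPM in control vehicle libraries and 46.4, 49.9 and 44.5 CPM in control FOLFIRINOX libraries. The E5 libraries gave 43.1, 39.3 and 38.8 CPM under vehicle and 65.1, 59.0 and 59.8 CPM under FOLFIRINOX. The drug groups did not overlap in either line, and the vehicle groups of the lines did. It rose by 0.52 ± 0.10 (adjusted p = 1.9e-04) in control and 0.61 ± 0.10 (adjusted p = 5.7e-05) in E5 cells, with no called difference (0.09 ± 0.14, adjusted p = 0.67). Its GENCODE v29 model holds the coding sequence only and 25.9% of its windows were unique, so its FPKM and its share of reads are less certain than those of the other leading genes.

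H2BC5 (ENSG00000158373.8, chromosome 6, 26158146 to 26171349) ended at overlapping levels in both lines under the drug from separate vehicle levels. It had 24.8, 24.7 and 24.7 CPM in control vehicle libraries and 60.6, 53.3 and 59.9 CPM in control FOLFIRINOX libraries. Its values in the E5 line were 35.0, 37.2 and 36.0 CPM under vehicle and 60.5, 54.8 and 61.5 CPM under FOLFIRINOX. All pairs were apart except the 2 FOLFIRINOX groups, whose fold was 0.03 ± 0.07 (adjusted p = 0.74). It rose by 1.22 ± 0.07 (adjusted p = 5.0e-10) in control and 0.71 ± 0.07 (adjusted p = 6.1e-07) in E5 cells and was higher in E5 cells under vehicle by 0.55 ± 0.08 (adjusted p = 1.9e-05). The difference of responses was -0.52 ± 0.10 (adjusted p = 0.0018). H2BC4 (ENSG00000180596.7, chromosome 6, 26114873 to 26123926) had the same overlaps, from 3.11, 3.81 and 3.31 CPM to 16.3, 13.6 and 14.3 CPM in control cells and from 7.36, 9.42 and 10.4 CPM to 14.5, 14.7 and 16.2 CPM in E5 cells. Its folds were 2.06 ± 0.13 (adjusted p = 1.1e-09), 0.71 ± 0.12 (adjusted p = 9.2e-05), 1.40 ± 0.15 (adjusted p = 4.9e-07) under vehicle and 0.05 ± 0.11 (adjusted p = 0.70) under FOLFIRINOX, with a difference of -1.35 ± 0.18 (adjusted p = 5.7e-05).

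H2BC11 (ENSG00000124635.9, chromosome 6, 27125897 to 27132795) lies head to head with H2AC11. It had 5.89, 5.58 and 7.37 CPM in control vehicle libraries and 27.1, 30.8 and 26.9 CPM in control FOLFIRINOX libraries. E5 cells had 10.0, 7.16 and 6.88 CPM under vehicle and 18.5, 18.5 and 18.3 CPM under FOLFIRINOX. The vehicle groups overlapped and the FOLFIRINOX groups did not, with control cells higher. It rose by 2.17 ± 0.12 (adjusted p = 2.3e-10) and 1.25 ± 0.13 (adjusted p = 6.5e-07), was lower in E5 cells under FOLFIRINOX at -0.62 ± 0.11 (adjusted p = 1.1e-04), and its difference was -0.93 ± 0.18 (adjusted p = 0.0017). H2BC8 (ENSG00000273802.2, chromosome 6, 26215159 to 26216692) had 0.666, 1.05 and 1.71 CPM in control vehicle libraries and 5.14, 4.66 and 4.96 CPM in control FOLFIRINOX libraries. Its E5 values were 2.01, 1.13 and 1.36 CPM under vehicle and 2.84, 3.06 and 3.54 CPM under FOLFIRINOX. It rose by 1.996 ± 0.22 (adjusted p = 7.0e-07) and 1.15 ± 0.25 (adjusted p = 0.0010) and was lower in E5 cells under FOLFIRINOX, -0.64 ± 0.19 (adjusted p = 0.0082), without overlap, but its difference of responses, -0.84 ± 0.36 (adjusted p = 0.093), did not pass.

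The other H2B genes gave both larger and smaller folds. H2BC15 had the highest fold of the 31 members in the count test in each line, 2.47 ± 0.14 (adjusted p = 2.4e-10) and 1.71 ± 0.14 (adjusted p = 5.1e-08). On log2(FPKM + 1) other members stood above it in both lines, H4C8 among them at 2.03 and 1.63 against 2.001 and 1.13. Its difference, -0.76 ± 0.21 (adjusted p = 0.014), was lost without control vehicle replicate 2 or E5 vehicle replicate 3, at -0.62 to -0.61 with adjusted p = 0.063. H2BC21 on chromosome 1 rose by 0.69 ± 0.10 (adjusted p = 1.5e-05) and 0.36 ± 0.09 (adjusted p = 0.0040) and was higher in E5 cells by 0.82 ± 0.10 (adjusted p = 4.6e-06) under vehicle and 0.49 ± 0.09 (adjusted p = 2.3e-04) under FOLFIRINOX. H2BC6 rose in E5 cells (0.69 ± 0.16, adjusted p = 0.0015) and was higher there by 0.99 ± 0.19 (adjusted p = 4.0e-04) under vehicle and 1.22 ± 0.16 (adjusted p = 5.8e-06) under FOLFIRINOX, while its fold in control cells was 0.45 ± 0.19 (adjusted p = 0.051). H2BC18 and H2BC7 rose in control cells, by 1.64 ± 0.39 (adjusted p = 0.0015) and 0.75 ± 0.29 (adjusted p = 0.031), and H2BC17 in E5 cells, by 0.73 ± 0.27 (adjusted p = 0.040). H2BC9 passed only as lower in E5 cells under FOLFIRINOX, -0.78 ± 0.27 (adjusted p = 0.022).

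Among the 5 tested H3 genes, 3 rose with the drug in control cells and 2 in E5 cells. The shares of all tested genes called higher were 32.6% in control and 25.0% in E5 cells. H3C10 (ENSG00000278828.1, chromosome 6, 27810064 to 27811300) had 4.11, 4.20 and 5.03 CPM in control vehicle libraries and 9.89, 11.7 and 10.1 CPM in control FOLFIRINOX libraries. In E5 cells it had 7.49, 6.90 and 7.90 CPM under vehicle and 9.24, 9.67 and 8.61 CPM under FOLFIRINOX. The drug groups did not overlap in either line, and E5 vehicle libraries lay above control vehicle libraries. Its folds were 1.25 ± 0.12 (adjusted p = 1.2e-07), 0.31 ± 0.12 (adjusted p = 0.037) and 0.72 ± 0.13 (adjusted p = 2.7e-04), and the difference of responses was -0.94 ± 0.17 (adjusted p = 8.4e-04). H3C8 (ENSG00000273983.1, chromosome 6, 26269405 to 26271815) had 1.44, 1.38 and 0.857 CPM in control vehicle libraries and 4.24, 4.41 and 5.23 CPM in control FOLFIRINOX libraries. The E5 libraries gave 0.669, 1.26 and 1.10 CPM under vehicle and 1.497, 1.56 and 1.41 CPM under FOLFIRINOX. The control FOLFIRINOX libraries lay above all others, and the E5 groups did not overlap. H3C8 rose by 1.96 ± 0.20 (adjusted p = 2.6e-07) in control cells, stood at 0.47 ± 0.27 (adjusted p = 0.16) in E5 cells, was lower in E5 cells under FOLFIRINOX at -1.65 ± 0.19 (adjusted p = 1.6e-06) and had a difference of -1.49 ± 0.35 (adjusted p = 0.0057).

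H3C2 (ENSG00000286522.2, chromosome 6, 26031589 to 26032099), with 255 reads, had 0.999, 0.572 and 0.286 CPM in control vehicle libraries and 2.44, 2.53 and 2.90 CPM in control FOLFIRINOX libraries. Its values in the E5 line were 1.07, 0.816 and 0.595 CPM under vehicle and 1.70, 0.996 and 2.06 CPM under FOLFIRINOX, and these overlapped. It rose by 2.25 ± 0.32 (adjusted p = 1.1e-05) and 1.003 ± 0.35 (adjusted p = 0.023) and was lower in E5 cells under FOLFIRINOX at -0.72 ± 0.26 (adjusted p = 0.025), while the difference, -1.25 ± 0.51 (adjusted p = 0.084), did not pass. H3C6 was lower in E5 cells under FOLFIRINOX, -0.62 ± 0.21 (adjusted p = 0.018), and passed in no other comparison, and H3C12 in none.

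Among H4 genes, H4C8 (ENSG00000158406.5, chromosome 6, 26277609 to 26285638) had the same 4 steps as H2AC6. It had 5.55, 7.10 and 8.0 CPM in control vehicle libraries and 29.03, 29.4 and 27.8 CPM in control FOLFIRINOX libraries. E5 cells had 16.7, 15.8 and 14.4 CPM under vehicle and 46.1, 45.2 and 49.3 CPM under FOLFIRINOX. No groups overlapped. It rose by 2.02 ± 0.10 (adjusted p = 6.1e-11) and 1.59 ± 0.09 (adjusted p = 1.1e-09) and was higher in E5 cells by 1.14 ± 0.11 (adjusted p = 2.4e-07) under vehicle and 0.71 ± 0.09 (adjusted p = 2.4e-06) under FOLFIRINOX. The difference, -0.43 ± 0.14 (adjusted p = 0.033), was lost without any 1 of 8 libraries (each except replicate 3 of the 4 groups), at -0.43 to -0.33 with adjusted p = 0.052 to 0.087.

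H4C3 (ENSG00000197061.5, chromosome 6, 26103933 to 26104337), the leading H4 gene per length, did not share this pattern. It had 6.996, 9.25 and 8.29 CPM in control vehicle libraries and 8.22, 9.26 and 8.63 CPM in control FOLFIRINOX libraries, which overlapped. Its E5 values were 8.16, 8.35 and 8.33 CPM under vehicle and 11.2, 8.75 and 12.8 CPM under FOLFIRINOX, which did not. Its folds were 0.07 ± 0.14 (adjusted p = 0.65) in control and 0.40 ± 0.14 (adjusted p = 0.021) in E5 cells, and the difference, 0.33 ± 0.19 (adjusted p = 0.23), did not pass. H4C9 (ENSG00000276180.1, chromosome 6, 27138588 to 27139881) had 0.888, 1.62 and 1.37 CPM in control vehicle libraries and 1.80, 2.33 and 3.34 CPM in control FOLFIRINOX libraries. In E5 cells it had 1.47, 1.44 and 1.10 CPM under vehicle and 2.06, 1.42 and 1.93 CPM under FOLFIRINOX. The control groups stood apart and the E5 groups overlapped. H4C9 rose in control cells by 0.92 ± 0.25 (adjusted p = 0.0038) and stood at 0.45 ± 0.28 (adjusted p = 0.20) in E5 cells, and H4C5 passed in no comparison.

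Several tested members were called with opposite signs in different comparisons between groups. H2AC8, H2AC11, H2BC8, H2BC11, H3C2 and H3C8 were higher with the drug in at least 1 line and lower in E5 than in control cells under it. For H2AC8 the low-count filter favoured both calls. H1-10 fell with the drug and was higher in E5 cells under it.

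In the 4 tested head-to-head pairs both genes were called higher in control cells. There 32.6% of all tested genes and 67.7% of members were called higher, with all 6 H2A and 9 of 12 H2B genes among them. Whether paired genes responded together more often than other members was not tested. For H2AC8 and H2AC15 the filter favoured a rise, so 2 of the 4 pairs, H2BC4 with H2AC6 and H2BC11 with H2AC11, are free of that condition. H2BC4 and H2AC6 rose by 2.06 ± 0.13 and 1.89 ± 0.07, H2BC8 and H2AC8 by 1.996 ± 0.22 and 2.38 ± 0.56, H2BC11 and H2AC11 by 2.17 ± 0.12 and 1.74 ± 0.10, and H2AC15 and H2BC15 by 1.22 ± 0.43 and 2.47 ± 0.14. In E5 cells H2BC4 rose by 0.71 ± 0.12 and H2AC6 by 1.44 ± 0.07, and H2BC8 by 1.15 ± 0.25 while H2AC8 stood at -0.16 ± 0.63. There H2BC11 and H2AC11 rose by 1.25 ± 0.13 and 0.67 ± 0.10, and H2BC15 rose by 1.71 ± 0.14 while H2AC15 stood at 1.14 ± 0.51. The differences of responses were -0.93 ± 0.18 and -1.07 ± 0.14 for H2BC11 and H2AC11, -1.35 ± 0.18 and -0.44 ± 0.10 for H2BC4 and H2AC6, -0.84 ± 0.36 (not called) and -2.54 ± 0.88 for H2BC8 and H2AC8, and -0.76 ± 0.21 and -0.08 ± 0.74 (not called) for H2BC15 and H2AC15. No test compared the genes of a pair with each other.

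The members on chromosome 6 and the few elsewhere can be set side by side. Of 27 tested genes on chromosome 6, 19 rose with the drug in control cells and 16 in E5 cells, and none fell, with medians of 1.22 and 0.69. Over all tested genes 32.6% were higher and 32.7% lower in control cells, and 25.0% and 27.3% in E5 cells. The 27 include the 3 genes that passed the filter through the treated libraries, and of the other 24 16 rose in each line. On chromosome 1, H2BC18 and H2BC21 both rose in control cells and both were higher in E5 cells under vehicle. H1-10, which lies outside the clusters, was the only tested member called lower with the drug, in control and in E5 cells. Members whose gene model spans over 1000 bases were tested more often, 21 of 27 against 10 of 43. The tested genes of longer and shorter models had median log2 folds in control cells of 1.22 and 0.86 and in E5 cells of 0.47 and 0.74.

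The 18 described members that were not tested had 12 to 88 counts over all libraries. Group sums are given in the order control vehicle, control FOLFIRINOX, E5 vehicle and E5 FOLFIRINOX, out of 49066923, 43101769, 36580112 and 48559554 gene reads. H1-6, the testis linker histone, had 1, 14, 2 and 11 counts, H2BC3 0, 7, 1 and 7 and H4C12 6, 16, 2 and 7, all with most counts in the FOLFIRINOX groups. H1-5 had 15, 4, 10 and 10 counts and H3C1 8, 3, 0 and 2, with the most in control vehicle libraries. The largest was H2BC13 with 30, 15, 23 and 20 counts, followed by H2AC20 with 20, 20, 12 and 18 and H1-3 with 13, 12, 13 and 23. H2AC17 had 46 counts in all, H2AC14 31, H4C14 30, H4C2 27, H4C4 19, H2AC12 18, H2AC21 13, and H2AC4, H3C11 and H4C1 12 each. For H2AC4, H3C1, H3C11 and H4C1 all E5 vehicle libraries were at 0, which allows up to 3 counts or 0.0853 CPM in that group, counting error only. These sums are too small to compare groups.

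Some of these low counts belong to genes with near-identical copies, where reads cannot be placed. In 13 of 68 members under 20% of 50-base windows were unique among transcripts. H2AC18, H2AC19, H3C14, H3C15 and H4C15 had 0 counts, yet the authors' FPKM, for which no source used here describes the handling of such reads, were above 0. Summed over a pair of copies, H2AC18 and H2AC19 had 8.90, 7.61 and 10.2 FPKM in control vehicle and 18.9, 24.9 and 20.5 in control FOLFIRINOX libraries. In E5 cells they had 22.5, 20.3 and 18.99 under vehicle and 26.1, 30.4 and 25.6 under FOLFIRINOX. The drug groups did not overlap in either line, and E5 vehicle overlapped control FOLFIRINOX. H4C14 and H4C15 had 7.49, 6.72 and 6.69 and 47.7, 53.8 and 44.8 FPKM in control cells. In E5 cells they had 11.9, 11.9 and 10.9 and 29.8, 31.1 and 29.8. All 4 groups stood apart in this FPKM sum, with control FOLFIRINOX highest. The counts of H4C14 did not follow that order. They were 4, 0, 11 and 15, with the groups ordered as for the count sums above. Control FOLFIRINOX libraries thus held 0 counts of H4C14, although its own mean FPKM was highest there, at 24.0. With 30 counts in all and 2.46% of its windows unique, the counts cannot decide between the 2 orders. H3C14 and H3C15, to which the authors' table gives the same value, summed to 0.380, 0.820 and 0.460 and 4.22, 5.02 and 4.32 FPKM in control cells, and 0.460, 0.240 and 0.540 and 2.16, 1.46 and 1.98 in E5 cells. Here too control FOLFIRINOX libraries lay above all others. The division within a pair is uncertain, so no test is given.

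**Figure D5:**
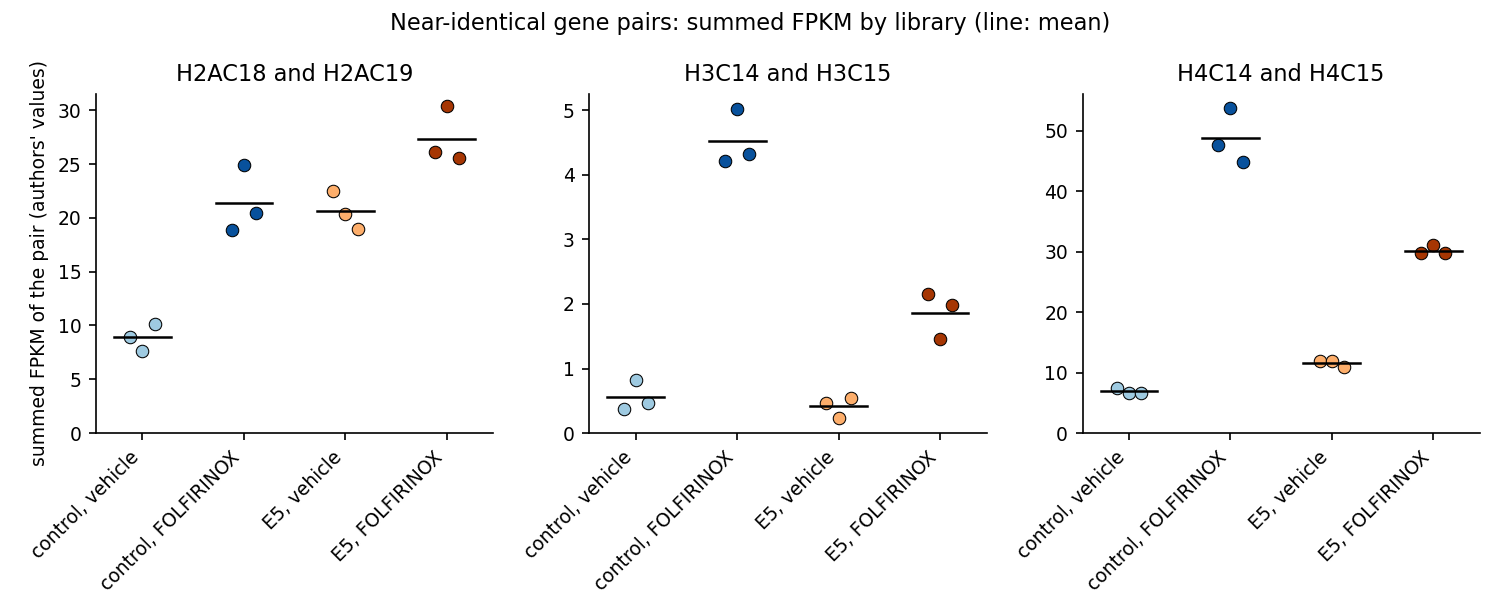
Summed FPKM of 3 pairs of near-identical histone genes on the y axis, in the 4 groups on the x axis; points are the 3 libraries and lines the means. H4C14 and H4C15 reach 48.8 ± 4.60 (SD, n = 3) in control FOLFIRINOX and 30.2 ± 0.725 in E5 FOLFIRINOX libraries.

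Genes that make, process and place histones were looked at beside the members. Their counts are to be read against the shares over all tested genes, which were 32.6% higher and 32.7% lower with the drug in control cells, 25.0% and 27.3% in E5 cells, 22.1% and 22.2% for E5 against control cells under vehicle, and 26.7% and 27.6% under FOLFIRINOX. Of 25 genes of histone mRNA 3′ end processing and turnover, all tested, 8 rose and 7 fell with the drug in control cells (median 0.02, where all tested genes had 0.00), and 7 rose and 7 fell in E5 cells (median 0.10), shares near those of all tested genes. ZNF473, the U7 snRNP-associated zinc finger protein, rose by 1.197 ± 0.08 (adjusted p = 1.1e-09) and 0.82 ± 0.08 (adjusted p = 3.9e-07). CPSF1, a cleavage factor subunit, changed by -1.09 ± 0.09 (adjusted p = 2.2e-08) and -0.72 ± 0.09 (adjusted p = 6.5e-06). SLBP, the stem-loop binding protein, was chosen after its values were seen and passed in no comparison, with 0.08 ± 0.06 (adjusted p = 0.25) and -0.04 ± 0.06 (adjusted p = 0.63) for the drug. In E5 against control cells 0 rose and 9 were lower under vehicle, CASP8AP2 (FLASH), which works with the U7 snRNP, among them at -0.70 ± 0.22 (adjusted p = 0.015). Under FOLFIRINOX 2 were higher and 6 lower.

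Of 13 tested genes of histone transcription control, 4 rose and 4 fell in control cells, and 3 rose and 2 fell in E5 cells, with medians of -0.06 and -0.002. Over all tested genes 32.6% rose and 32.7% fell in control and 25.0% and 27.3% in E5 cells, and the control shares of this list lie near these. HINFP, a factor of H4 promoters, rose by 0.66 ± 0.09 (adjusted p = 5.2e-06) and 0.25 ± 0.09 (adjusted p = 0.034). CCNE2, a cyclin that drives NPAT phosphorylation, changed by -0.62 ± 0.16 (adjusted p = 0.0022) and -0.62 ± 0.18 (adjusted p = 0.0066). NPAT, the coactivator of histone loci, was lower in E5 cells under vehicle at -0.56 ± 0.16 (adjusted p = 0.0075). There 7 of the 13 were lower and 1 higher, and under FOLFIRINOX 6 were lower and 0 higher.

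Most S-phase genes fell with the drug. Of 24 S-phase genes, 18 fell and 1 rose with the drug in control cells, and 16 fell and 1 rose in E5 cells, with medians of -0.42 and -0.28, where 32.7% and 27.3% of all tested genes fell. LIG1, the replicative ligase, changed by -1.34 ± 0.09 (adjusted p = 1.8e-09) and -1.10 ± 0.09 (adjusted p = 5.6e-08), and the sliding clamp gene PCNA by -0.83 ± 0.06 (adjusted p = 7.9e-09) and -0.65 ± 0.06 (adjusted p = 3.3e-07). In E5 against control cells 17 were lower and 1 higher under vehicle, and 8 lower and 5 higher under FOLFIRINOX. Of 26 chaperone and deposition genes, 16 fell and 4 rose in control and 10 fell and 4 rose in E5 cells, with medians of -0.31 and -0.15, against the same shares of all tested genes. Among them HIRA, which deposits H3.3, changed by -1.22 ± 0.12 (adjusted p = 1.1e-07) and -0.73 ± 0.12 (adjusted p = 6.2e-05). Between the lines, 10 were lower and 1 higher in E5 cells under vehicle, and 9 lower and 4 higher under FOLFIRINOX. Of 12 tested variant histone genes outside the name pattern, 7 fell and 4 rose in control and 6 fell and 3 rose in E5 cells. H2AX, the variant phosphorylated at DNA breaks, changed by -0.87 ± 0.10 (adjusted p = 5.0e-07) and -0.59 ± 0.09 (adjusted p = 6.6e-05), and H2AZ1, a replication-independent H2A variant, changed by -0.40 ± 0.06 (adjusted p = 2.8e-05) in E5 cells. Between the lines, 3 variants were lower and 2 higher in E5 cells under vehicle, and 3 lower and 3 higher under FOLFIRINOX.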

How the data were processed

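RNA of KP4 cells in 4 groups was read from 12 columns, 3 for each of the 4 samples. Counts per gene were deposited by the authors, made with STAR 2.5.1b on build GRCh38 after Trimmomatic, per the submitters' processing notes, and are stranded by the table's name. FPKM were also deposited by the authors, as were rlog values on a log2 scale, whose programs are not given in the sources used here. Library sizes are sums over genes and leave out the other reads (multimapping reads 10.8 to 12.8%, unmapped 1.47 to 1.70%, without a feature 6.63 to 8.52%, ambiguous 2.86 to 3.20% of reads).

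Counts were tested with edgeR 4.0.16 in R 4.3.3 by the quasi-likelihood F test, with a group means model over 12 libraries, TMM scaling and filterByExpr, which left 15636 genes. The Benjamini-Hochberg adjustment ran over these genes, and a call is an adjusted p under 0.05. The biological coefficient of variation was 7.37%. On simulated counts for control cells (15096 genes, 200 changed) 98% of genes changed by log2 1 and 100% by log2 2 were called. The changed genes were drawn from those with a mean of at least 1 CPM, and every gene was given the same coefficient of variation. These rates therefore do not describe members with few reads or a wider spread. Alternatives used limma 3.58.1 on log2(FPKM + 1), log2(FPKM + 0.1) and rlog, DESeq2 1.42.0, other scalings and filters, and each library left out.

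The members and gene lists were chosen with earlier results of these data known. Library values are given for the 3 tested genes of highest FPKM per class and for members called with opposite signs, apart from an item that is not reported here, and for H2BC4, added after its values were seen. The counts without the 3 members that passed the filter through FOLFIRINOX libraries and the core sum without H2AC6 were also added after the values were seen. From each list at most 4 called genes per comparison with a mean of at least 5 CPM could be named.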

Additional observations from a re-analysis of the deposited data

Results flagged for a closer look

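The drug response of several histone genes differed between the lines in the test of the difference (edgeR's quasi-likelihood test with Benjamini-Hochberg adjustment, E5 minus control). The response was called smaller in E5 cells for 11 core histone genes. The difference was -1.49 ± 0.35 for H3C8, -1.35 ± 0.18 for H2BC4, -1.07 ± 0.14 for H2AC11, -0.94 ± 0.17 for H3C10, -0.93 ± 0.18 for H2BC11, -0.52 ± 0.10 for H2BC5 and -0.44 ± 0.10 for H2AC6, and these calls held without any single library. The other 4 calls did not. The difference was -2.54 ± 0.88 for H2AC8, which passed the low-count filter only through FOLFIRINOX libraries and whose call was lost without any 1 of 8 libraries (-2.63 to -1.67). It was -1.09 ± 0.37 for H2AC13 and -0.43 ± 0.14 for H4C8, both lost without any 1 of 8 libraries (-1.13 to -0.91 and -0.43 to -0.33), and -0.76 ± 0.21 for H2BC15, lost without either of 2 (-0.62 to -0.61). H1-10 differed the other way, by 0.69 ± 0.17, where the fall was smaller in E5 cells.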

How the results depend on the processing

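Over 155 results of single genes, 3334 values under other settings gave 3139 with the same call, 159 calls lost and 36 gained. Where a result was called in the main fit or under the other setting, 0 values turned in direction. Results called in neither were counted as the same even where the sign changed. H2BC4 in E5 against control cells under FOLFIRINOX went from 0.05 to -0.11 on log2(FPKM + 1). Of 85 calls, 56 held under every setting run. The count of histone genes falling with the drug in control cells was 1 and became 2 with log2(FPKM + 0.1), and 1 to 2 with single libraries left out (2 without control vehicle replicate 1). The fall in E5 cells was called for 0 genes with log2(FPKM + 1) and no filter, where 2 genes were lower in E5 cells under vehicle in place of 1. The count of differences of responses called above 0 was 2, with H1-10 among them. It was 0 with log2(FPKM + 1), 0 with log2(FPKM + 0.1) and 0 with log2(FPKM + 1) and no filter. With single libraries left out, 18 to 22 members rose in control and 14 to 18 in E5 cells. Then 9 to 13 were higher in E5 cells under vehicle, and 7 to 9 higher and 6 to 10 lower under FOLFIRINOX. The differences of responses called below 0 numbered 8 to 11. Scaling by total counts moved the median of all genes by 0.14 in control cells, where 23 members then rose, and 12 were lower in E5 cells under FOLFIRINOX. Deviations of same-numbered libraries correlated at -0.19 to 0.15 (n = 18 pairs) and others at -0.22 to 0.24, and these ranges overlapped. With so few libraries per group, such correlations cannot decide whether the column numbers pair the samples, and the labels do not say. With the replicate block 21 members rose in control and 17 in E5 cells, and 11 were higher in E5 cells under vehicle. Under FOLFIRINOX 8 were higher and 9 lower in E5 cells, and 9 differences of responses were called below 0. Only the compared groups in the fit was not run for the difference, which uses all groups. Depth limits genes under about 1 CPM.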
